A study of Mus musculus with 9 samples.

Results

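The cytochrome P450 families 1 to 4 and the conjugation enzymes of the Ugt1, Ugt2, Gst and Sult families were followed across 9 RNA sequencing libraries of mouse intestine. Members were the protein coding genes with names of these families that reached at least 0.5 FPKM (a read level scaled for transcript length and by a factor for each library) in at least 3 of the 9 libraries, so they were chosen by their measured levels. Of 143 protein coding genes with such a name, 65 were members, among 15391 genes that passed the same cut and 54532 genes in the table. The cut was applied without regard to group, but 3 members reached it in no IR library. Cyp3a44 and Cyp2c29 reached it in the 3 control libraries and IR+LYC 2 only. Ugt1a9 reached it in control 1, control 3 and IR+LYC 2 only. For these genes a low level in IR is tied to how members were chosen. By family, 2 members were Cyp1, 15 Cyp2, 4 Cyp3, 8 Cyp4, 4 Ugt1, 5 Ugt2, 20 Gst and 7 Sult genes.

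Each of the 3 groups had 3 libraries, and every mouse was gavaged with corn oil, the vehicle of lycopene. The control group had the vehicle and no irradiation. The IR group had the vehicle and a single exposure of the whole abdomen to 12 Gy on day 4. The IR+LYC group had lycopene, a carotenoid of tomato, at 10 mg/kg per day over 10 days, with the same exposure on day 4. Lycopene without irradiation was not analysed here, so no comparison shows lycopene in unirradiated mice. The labels give neither strain, sex, age nor segment of the intestine, and do not say that each library is a separate mouse, so p-values measure the spread between these libraries, which may be partly technical.

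P450 enzymes are membrane-bound monooxygenases that insert oxygen into drugs, dietary compounds, steroids and fatty acids, the step called phase I. Glucuronosyltransferases, glutathione S-transferases and sulfotransferases then attach glucuronic acid, glutathione or sulfate, the step called phase II, and transporters remove the conjugates. In the intestine these enzymes are made mainly by mature absorptive enterocytes of the villus, where they act on swallowed compounds before these reach the liver. Xenobiotic receptors set the level of many of them, among them the pregnane X receptor (Nr1i2), the constitutive androstane receptor (Nr1i3) and the aryl hydrocarbon receptor.

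The libraries held 17803889 to 22414949 reads in genes, and 1 read on a transcript of 1 kb was worth 0.0354 to 0.0656 FPKM. Libraries within a group stood apart. Fabp6, the ileal bile acid carrier, was at 0.593 FPKM in control 1 and 0.274 FPKM in IR+LYC 2, against 89.9 to 1561 FPKM in the other 7 libraries. Onecut2, a transcription factor of the proximal small intestine, was at 1.16 FPKM in control 1 and 5.61 FPKM in IR+LYC 2 and at or below 0.253 FPKM in the other 7, and the labels give no gut position. Medians relative to the control mean (log2 scale) were taken over 7 ileal and 7 proximal genes. The ileal median was -0.43 in control 1, -0.45 in IR 2, and -1.09, -1.02 and -0.42 in IR+LYC, so it did not single out these 2 libraries. The proximal median was highest in them, at 0.37 and 0.24. The summed level of 21 enterocyte brush border genes was 23618 to 31106 FPKM in control, 4380.1 to 24742 FPKM in IR (lowest in IR 2) and 1699 to 28639 FPKM in IR+LYC (highest in IR+LYC 2). The summed level of 10 smooth muscle genes was 484 to 621 FPKM in control, 1093 to 1442 FPKM in IR, 2290.1 and 1477 FPKM in IR+LYC 1 and IR+LYC 3, and 464 FPKM in IR+LYC 2. On both lists IR+LYC 2 was therefore at or just below the control levels, unlike the other libraries of its group. In bulk tissue, fewer cells of a type and less RNA per cell cannot be told apart. Of 12 hepatocyte genes 4 passed the level cut, led by Cps1 and Pck1, which the intestine also makes, and the list summed to 253 to 335 FPKM in control, 215 to 318 FPKM in IR and 271 to 533 FPKM in IR+LYC, while Alb, Fgb and Fgg did not pass 0.112 FPKM and Fga was at 0. Of 10 colon genes 6 passed, led by Muc3 and Car4, with sums of 304 to 402 FPKM in control, 316 to 354 FPKM in IR and 87.2 to 566 FPKM in IR+LYC, while Aqp8 and Hoxd13 were at 0. Of 10 pancreatic acinar genes 1 passed, Cela1, with sums of 2.98 to 4.66 FPKM in control, 5.72 to 6.65 FPKM in IR and 3.97 to 8.82 FPKM in IR+LYC, while Amy2a5 and Cela3b were at 0. In the comparison of IR with control, a log2 difference printed with its SE is also given without a single library where that moved it by more than 1.5 times.

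The comparison of IR with control asks what abdominal irradiation did to these enzymes, and the 3 libraries of each group were compared with limma on log2(FPKM + 1). Levels of 49 of the 65 members (75.4%) were lower in IR, beside 51.9% of all genes tested. The median log2 difference of the members was -0.45, and that of all genes was -0.01. The members' median was -0.16 without control 1 and -0.25 without IR 2. In 19 members every IR library lay below every control library (29.2%, beside 14% of all genes), and in 1 member every IR library lay above (1.54%, beside 14.1%). Both the 49 and the 19 include Cyp3a44, Cyp2c29 and Ugt1a9, whose low levels in IR are tied to how members were chosen. No member passed an adjusted p of 0.05 (limma, Benjamini-Hochberg), a threshold that 0.0195% of all genes passed in this comparison. At an unadjusted limma p under 0.05 there were 8 members (12.3%, beside 8.34% of all genes), 7 of them lower (10.8%, beside 4.44%), which were Cyp3a11, Cyp3a44, Cyp2c29, Cyp2c55, Cyp2c66, Ugt1a9 and Gstm2, and 1 higher (1.54%, beside 3.9%), Gsta3. Of these, Cyp3a44, Cyp2c29 and Ugt1a9 reached the level cut in no IR library. Limma-voom on the recovered reads also called no member, with 9 members at an unadjusted p under 0.05 (13.8%, beside 6.5%). When the fit held only the IR and control libraries, Cyp2c55 passed with an adjusted limma p of 0.0306, and 0.65% of all genes passed. Without IR+LYC 2 it was likewise the 1 member that passed (1.54%, beside 0.637% of all genes). Without control 1 and IR+LYC 2 no member passed, beside 0.104% of all genes.

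**Figure D1:**
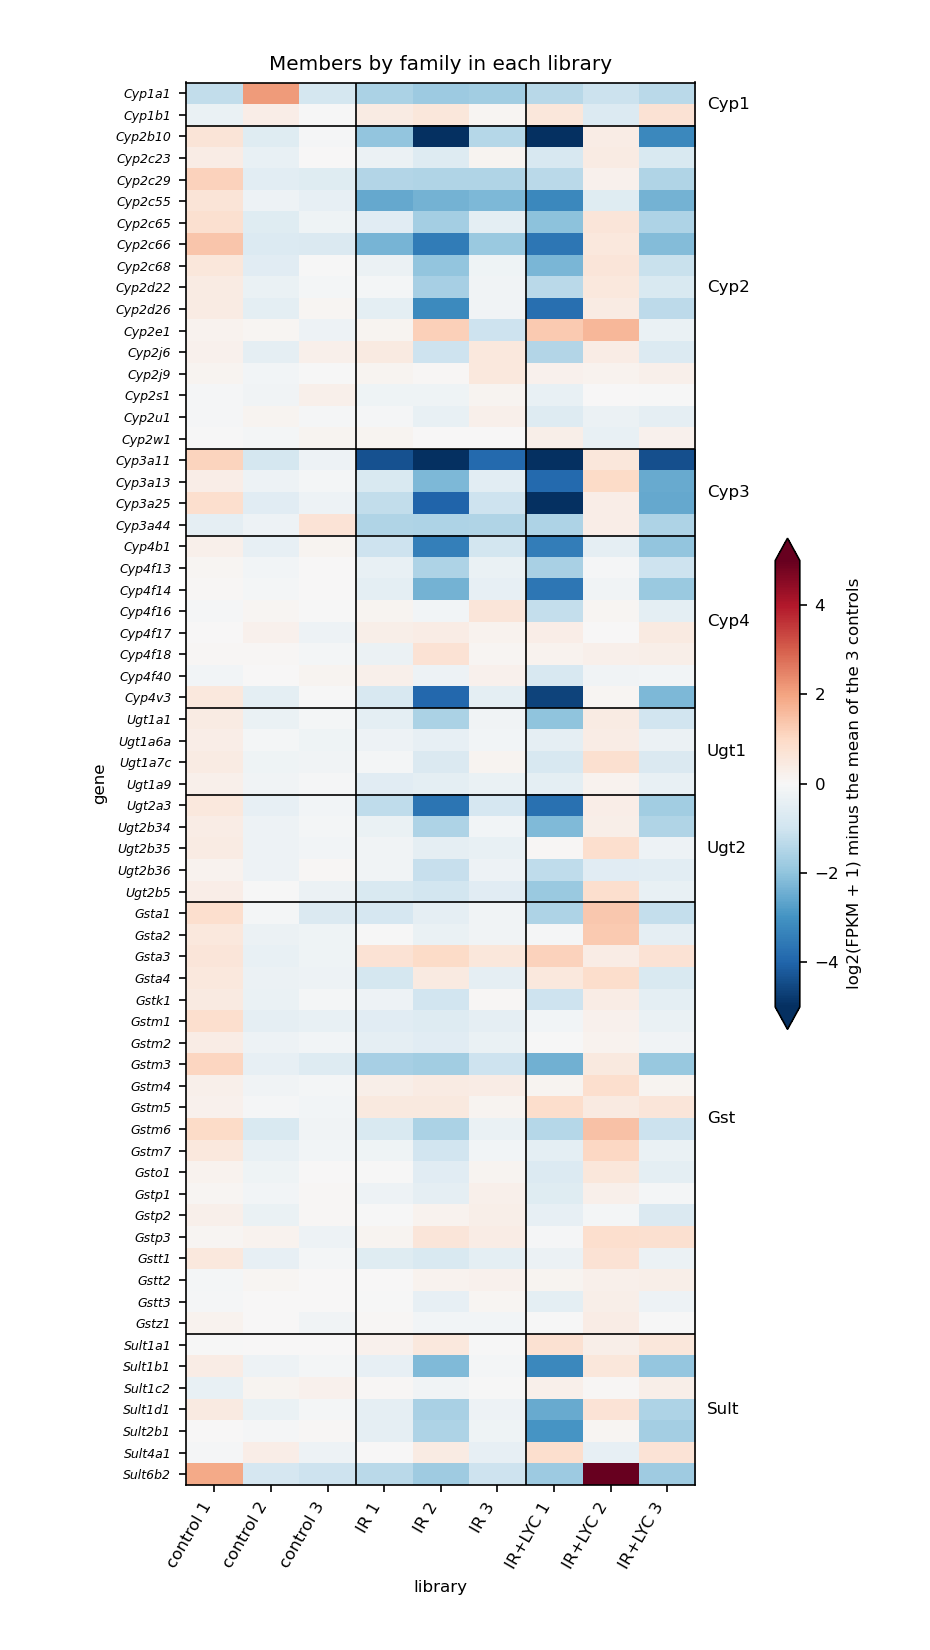
Level of each of the 65 members (rows, by family) in each of the 9 libraries (columns), as log2(FPKM + 1) minus the mean of the 3 control libraries, in colour. Values beyond the ends of the scale are drawn in its end colours, and lines separate families and groups. The deepest blue lies in Cyp2 and Cyp3 rows of IR 2 and IR+LYC 1, most Gst rows are pale, and the IR+LYC 2 column lies inside the control range in 22 rows and above every control in 34.

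The Cyp3 family was lower in IR in 4 of 4 members, with a median log2 difference of -1.81, and in each of the 4 the groups did not overlap (14% of all genes were lower without overlap). Cyp3a44, among the 4, reached the level cut in no IR library. Its part in this count and median is tied to how members were chosen. Cyp3a11, the main drug- and steroid-oxidising P450 of mouse and a target of the pregnane X receptor, was at 364, 90.1 and 139 FPKM in control (197 ± 146, SD, n = 3) and at 7.12, 0.567 and 10.2 FPKM in IR (5.97 ± 4.93, SD, n = 3). The highest IR library was thus far below the lowest control. Its log2 difference of -5.0 (SE 1.74, limma adjusted p = 0.517) was the lowest of all 15391 genes tested, rank 1. In IR+LYC it was at 0.201, 244 and 6.87 FPKM, so IR+LYC 2 lay inside the control range while the other two lay with the IR libraries.

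Cyp3a44, a close relative on the same chromosome, was at 1.16, 1.42 and 3.75 FPKM in control and at 0.0259, 0 and 0.0278 FPKM in IR, where a count of 0 in IR 2 allows up to 0.0679 FPKM (3 counts, counting error only). The log2 difference was -1.52 (SE 0.51, limma adjusted p = 0.493). In IR+LYC it was at 2.64 FPKM in IR+LYC 2 and at 0 in the other two, where a count of 0 allows up to 0.0541 and 0.0742 FPKM. Cyp3a44 was thus near 0 in the 5 irradiated libraries in which Cyp3a11 was lowest, although it was far scarcer than Cyp3a11 in every control.

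Cyp3a25, a testosterone-oxidising member, was at 336, 127 and 158 FPKM in control, 80.0, 10.8 and 90.7 FPKM in IR, and 4.08, 239.9 and 31.5 FPKM in IR+LYC, with a log2 difference of -2.09 (SE 1.35, limma adjusted p = 0.652) between IR and control that was -1.14 without IR 2. Cyp3a13, the most abundant of the 4, was at 335, 227 and 253 FPKM in control, 157, 55.4 and 184 FPKM in IR, and 17.4, 527 and 46.4 FPKM in IR+LYC. Its log2 difference between IR and control was -1.19 (SE 1.09, limma adjusted p = 0.700), and -0.65 without IR 2. The summed Cyp3 level was 445 to 1035 FPKM in control, 66.8 to 285 FPKM in IR, 21.7 and 84.7 FPKM in IR+LYC 1 and IR+LYC 3, and 1014 FPKM in IR+LYC 2. Cyp3a11, Cyp3a25 and Cyp3a13 were lowest in IR 2 among the IR libraries, and all 4 genes were highest in IR+LYC 2 among the IR+LYC libraries, as the brush border list was. Cyp3a44, with 1, 0 and 1 reads in IR, cannot be ranked there.

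Cyp3a11, Cyp3a44 and Cyp3a25 lie within chr5:145773983-146009618 (GRCm38), and their log2 differences between IR and control spanned -5.0 to -1.52. The 250 bases before the annotated starts of Cyp3a11 (chr5:145879855-145880104, minus strand) and Cyp3a44 (chr5:145805875-145806124, minus strand) are shown because these neighbours were lowest in the same 5 irradiated libraries. Sequences are from RefSeq (GRCm38.p6), written 5′ to 3′ along the gene, with capitals marking AGGTCA, a core bound by nuclear receptors, and CAAAGTCCA, a site of the HNF4 type.
Cyp3a11: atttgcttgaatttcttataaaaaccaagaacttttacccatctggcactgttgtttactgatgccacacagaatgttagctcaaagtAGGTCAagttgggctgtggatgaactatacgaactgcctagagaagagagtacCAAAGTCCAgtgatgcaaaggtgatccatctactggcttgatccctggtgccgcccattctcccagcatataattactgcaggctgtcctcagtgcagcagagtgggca
Cyp3a44: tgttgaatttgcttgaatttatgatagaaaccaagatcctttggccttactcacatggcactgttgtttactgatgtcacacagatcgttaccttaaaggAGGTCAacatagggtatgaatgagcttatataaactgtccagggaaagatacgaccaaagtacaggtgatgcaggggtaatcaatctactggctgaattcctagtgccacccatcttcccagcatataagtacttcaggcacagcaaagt
The RefSeq start of Cyp3a11 lies 110 bases inside the gene start of the deposited table. Searched on both strands, CAAAGTCCA was found 109 to 101 bases before the Cyp3a11 start and not in the Cyp3a44 window, and AGGTCA was found 162 to 157 bases before the start of Cyp3a11 and 150 to 145 bases before that of Cyp3a44. Over 27025 such windows of all genes, CAAAGTCCA was in 0.377% and AGGTCA in 13.8%. Of 58 members with a window, CAAAGTCCA was in 3 (Cyp2c65, Cyp2c68 and Cyp3a11) and AGGTCA in 11, among them Cyp3a25 and Cyp2c29. These are matches of letters, not shown to be sites in use.

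**Figure D2:**
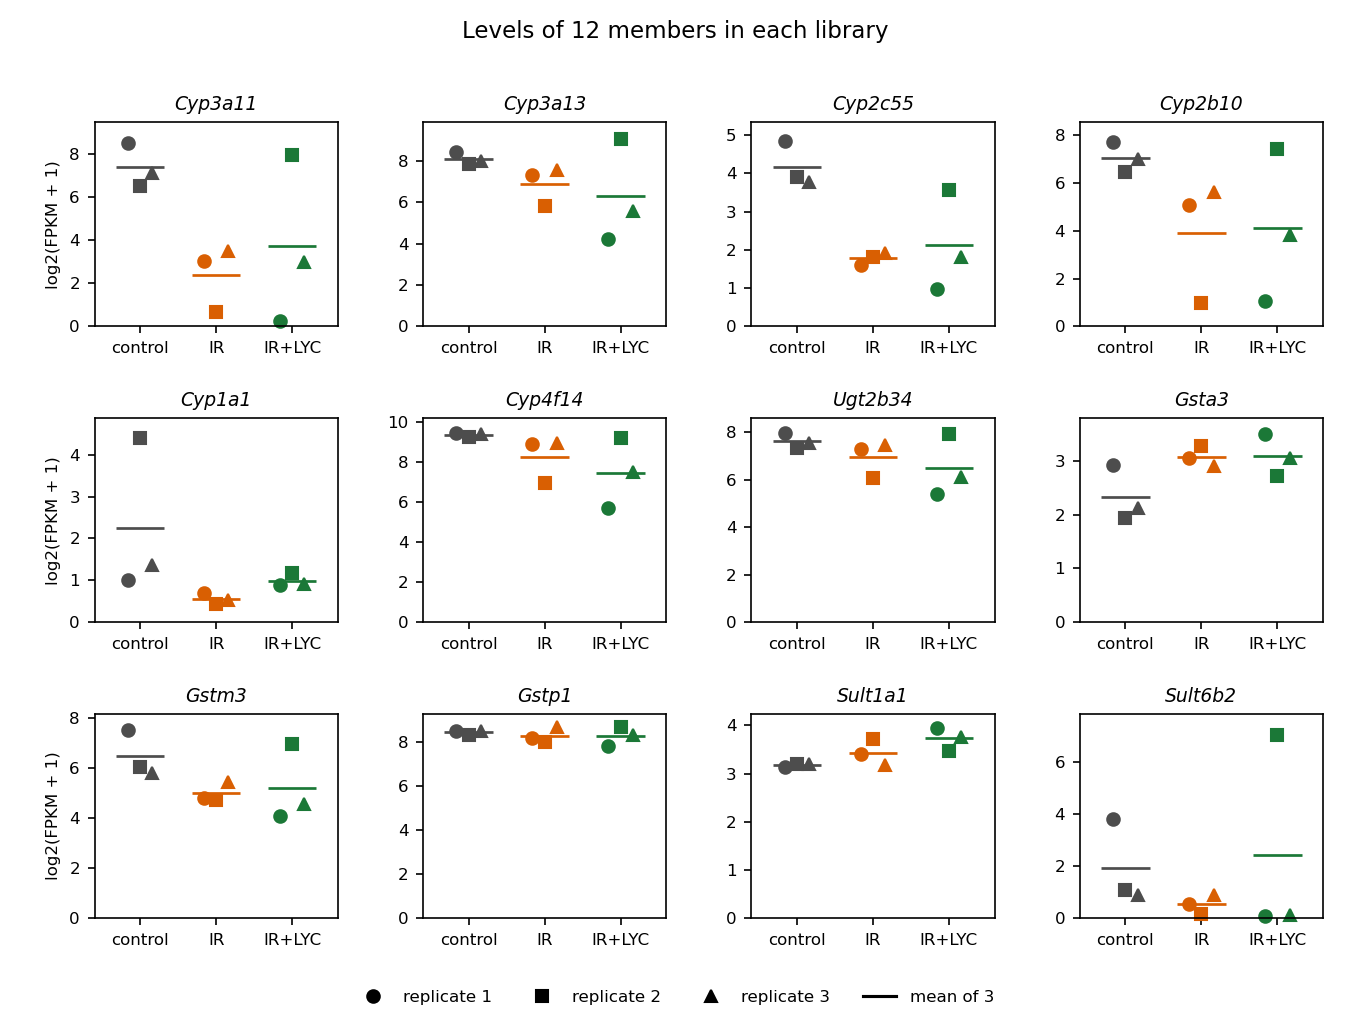
Levels of 12 members as log2(FPKM + 1) on a linear axis, 1 panel per gene, with 1 symbol per library (circle, square and triangle for replicates 1, 2 and 3) and a line at the mean of the 3 libraries of a group. Cyp3a11, Cyp3a13, Cyp2c55, Cyp2b10, Cyp1a1, Cyp4f14 and Gstm3 have no overlap between IR and control, and Gstp1 is level across groups. The IR+LYC square (replicate 2) is far above the other IR+LYC symbols for Cyp3a11, Cyp3a13, Cyp2b10 and Sult6b2.

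The Cyp2 family, which oxidises drugs, ethanol and polyunsaturated fatty acids, had 12 of 15 members lower in IR, with a median log2 difference of -0.65 (-0.25 without IR 2), and 4 members in which every IR library lay below every control, where 14% of all genes did. These 4 include Cyp2c29, whose low level in IR is tied to how members were chosen. Cyp2c55, which hydroxylates arachidonic and linoleic acid, was at 27.6, 14.1 and 12.6 FPKM in control and 2.06, 2.52 and 2.76 FPKM in IR. The 3 IR values lay close together, all far below the lowest control. Its log2 difference was -2.39 (SE 0.59), the smallest p among the members, and the adjusted p of 0.353 ranged from 0.0306 to 0.796 over 18 alternatives. In IR+LYC it was at 0.958, 10.9 and 2.51 FPKM, and here even IR+LYC 2 stayed below every control, unlike Cyp3a11.

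Cyp2c66 was at 52.5, 11.6 and 11.2 FPKM in control, 3.03, 0.776 and 4.51 FPKM in IR and 0.654, 27.8 and 3.49 FPKM in IR+LYC. The log2 difference between IR and control was -2.57 (SE 1.04, limma adjusted p = 0.568), and was -1.87 without control 1, which was more than 4 times the other controls. Cyp2c29, an epoxygenase of arachidonic acid, was at 5.27, 0.95 and 0.888 FPKM in control and 0.0332, 0 and 0.0178 FPKM in IR, where a count of 0 allows up to 0.0436 FPKM. It was near 0 in every IR library, with a log2 difference of -1.49 (SE 0.56, limma adjusted p = 0.543) that was -0.92 without control 1. It was at 0.127, 2.34 and 0 FPKM in IR+LYC, where a count of 0 in IR+LYC 3 allows up to 0.0476 FPKM. Cyp2c65, the most abundant Cyp2c gene, was at 150.1, 56.0 and 72.4 FPKM in control, 56.5, 25.4 and 59.9 FPKM in IR and 19.5, 129 and 28.6 FPKM in IR+LYC. Its IR and control libraries overlapped, with a log2 difference of -0.92 (SE 0.70, limma adjusted p = 0.669) that was -0.52 without control 1 and -0.54 without IR 2.

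Cyp2c55, Cyp2c65, Cyp2c66, Cyp2c29 and Cyp2c68 lie within chr19:39007019-39741054, and their log2 differences between IR and control spanned -2.57 to -0.82, with no overlap in 3 of the 5. The 3 include Cyp2c29, which reached the level cut in no IR library. Cyp2c68 was named after its values were seen. The windows of Cyp2c55 (chr19:39006769-39007018, plus strand) and Cyp2c66 (chr19:39113648-39113897, plus strand) are shown for comparison with Cyp3a11, since these were, with Cyp2b10, the other members among the 100 lowest log2 differences of all genes (4 members, 6.15%, beside 0.65% of all genes).
Cyp2c55: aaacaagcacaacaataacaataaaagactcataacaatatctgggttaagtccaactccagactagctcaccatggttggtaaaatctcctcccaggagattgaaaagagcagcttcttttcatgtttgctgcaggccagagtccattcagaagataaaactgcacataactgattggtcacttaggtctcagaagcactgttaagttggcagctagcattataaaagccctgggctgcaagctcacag
Cyp2c66: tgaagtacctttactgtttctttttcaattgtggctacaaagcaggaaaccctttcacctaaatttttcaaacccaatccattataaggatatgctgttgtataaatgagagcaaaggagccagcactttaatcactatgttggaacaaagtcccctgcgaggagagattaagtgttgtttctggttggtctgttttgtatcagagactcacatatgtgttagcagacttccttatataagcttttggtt
Neither window held AGGTCA, CAAAGTCCA, TGACNNNGC or GCGTG on either strand, so nothing is in capitals.

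Cyp2b10, a target of the constitutive androstane receptor, was at 208, 86.3 and 128 FPKM in control, 32.8, 0.968 and 48.1 FPKM in IR and 1.07, 171 and 13.1 FPKM in IR+LYC. The IR libraries were all below the controls, but IR 2 was far below the other two, and the log2 difference of -3.16 had an SE of 1.67 (limma adjusted p = 0.630) and was -1.71 without IR 2. Cyp2d26, the most abundant Cyp2 gene, was at 173, 92.4 and 141 FPKM in control, 92.1, 13.4 and 116 FPKM in IR and 8.76, 176 and 52.3 FPKM in IR+LYC. IR 3 was inside and IR 1 just below its control range, while IR 2 was far below (log2 difference -1.30, SE 1.10, limma adjusted p = 0.687, and -0.34 without IR 2).

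Cyp2s1, an extrahepatic P450 of epithelia, was at 12.7 to 17.3 FPKM in control, 12.4 to 16.1 FPKM in IR and 11.1 to 14.6 FPKM in IR+LYC. Its 1.57-fold range over the 9 libraries was the narrowest in the family, while Cyp2b10, its neighbour on chromosome 7, spanned over 100-fold. Cyp2j6, an epoxygenase of the gut, was at 69.8, 44.3 and 72.2 FPKM in control and 83.2, 29.2 and 87.3 FPKM in IR, so that IR 1 and IR 3 were above every control and IR 2 below. Cyp2e1, the ethanol-oxidising P450, ran against most of the family in IR 2, where it was at 24.2 FPKM beside 11 and 4.45 FPKM in IR 1 and IR 3, 8.28 to 11.4 FPKM in control and 26.2, 34.1 and 7.83 FPKM in IR+LYC.

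Both Cyp1 members are targets of the aryl hydrocarbon receptor. Cyp1a1, which oxidises polycyclic aromatic hydrocarbons, was at 1.02, 20.1 and 1.57 FPKM in control, 0.620, 0.351 and 0.45 FPKM in IR and 0.850, 1.25 and 0.871 FPKM in IR+LYC. The IR libraries did not overlap the controls, but control 2 was more than 10-fold above the other controls, and the log2 difference of -1.70 (SE 0.76, limma adjusted p = 0.601) was -0.63 without control 2. Cyp1b1, which hydroxylates oestradiol and hydrocarbons, was at 2.65, 4.73 and 3.52 FPKM in control, 5.10, 5.81 and 3.88 FPKM in IR and 5.71, 1.83 and 6.58 FPKM in IR+LYC, and the groups overlapped. Ahrr, the repressor of the aryl hydrocarbon receptor, was at 0.656, 1.19 and 0.930 FPKM in control, 0.501, 0.344 and 0.584 FPKM in IR and 0.157, 0.195 and 0.293 FPKM in IR+LYC. Its 3 groups did not overlap one another, with a log2 difference of -0.38 between IR and control (SE 0.13, limma adjusted p = 0.508).

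Cyp4 enzymes hydroxylate the end of fatty acid and eicosanoid chains, and 4 of the 8 members were lower in IR, with a median log2 difference of -0.34 (-0.22 without IR 2). Cyp4f14, which hydroxylates leukotriene B4, was the most abundant member of all families and held 14.4% of their summed FPKM. It was at 677, 596 and 662 FPKM in control, 464, 124 and 486 FPKM in IR and 51.3, 573 and 178 FPKM in IR+LYC. The controls lay within a narrow range and every irradiated library was below them, with a log2 difference between IR and control of -1.08 (SE 0.84, limma adjusted p = 0.674), and of -0.44 without IR 2. Cyp4b1, which activates protoxins and oxidises medium-chain fatty acids, was at 102, 63.4 and 93.5 FPKM in control, 40.9, 7.01 and 43.8 FPKM in IR and 6.87, 61.5 and 20.6 FPKM in IR+LYC. As for Cyp4f14, every irradiated library was below every control, and the log2 difference between IR and control was -1.79 (SE 0.85, limma adjusted p = 0.612), and -0.98 without IR 2. Cyp4v3, the mouse counterpart of human CYP4V2, was at 276, 136 and 190.2 FPKM in control, 110.4, 11.8 and 136 FPKM in IR and 6.84, 205 and 39.9 FPKM in IR+LYC, and IR overlapped control by a single library (log2 difference -1.74, SE 1.24, limma adjusted p = 0.663, and -0.65 without IR 2).

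The Cyp4f genes did not move as a block. Cyp4f14, Cyp4f13, Cyp4f16, Cyp4f17 and Cyp4f40 lie together within chr17:32506462-32947402, and their log2 differences between IR and control ran from -1.08 to 0.28. Cyp4f16 was at 40.6 to 46.1 FPKM in control, 38.5 to 66.4 FPKM in IR and 17.9 to 46.2 FPKM in IR+LYC. Cyp4f40 was at 43.3 to 52.8 FPKM in control, 40.3 to 56.9 FPKM in IR and 26.9 to 43.5 FPKM in IR+LYC. Both overlapped between IR and control, while Cyp4f13, named after its values were seen, was at 14.2 to 16.8 FPKM in control and 4.71 to 12.2 FPKM in IR with no overlap.

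All 9 glucuronosyltransferase members were lower in IR, where 51.9% of all genes were lower. The median log2 differences were -0.37 for Ugt1 (-0.22 without control 1 and -0.27 without IR 2) and -0.68 for Ugt2 (-0.27 without IR 2). Without IR 2, 3 Ugt1 members were lower and 1 was higher. The 9 include Ugt1a9, which reached the level cut in no IR library. Ugt1a1, the bilirubin-conjugating enzyme, was at 30.4, 17.7 and 21.2 FPKM in control, 15.7, 6.85 and 20.1 FPKM in IR and 4.79, 30.4 and 11.2 FPKM in IR+LYC, with a log2 difference between IR and control of -0.74 (SE 0.60, limma adjusted p = 0.680), and of -0.33 without IR 2. Ugt1a7c, which conjugates phenols, overlapped between groups, at 21.5 to 33.9 FPKM in control and 14.9 to 28.4 FPKM in IR. Ugt1a9 was low, at 0.908, 0.391 and 0.508 FPKM in control and 0.0697, 0.142 and 0.249 FPKM in IR. It did not overlap between IR and control, with a log2 difference of -0.46 (SE 0.19, limma adjusted p = 0.581). The Ugt1a genes share their last exons at 1 locus (chr1:88070800-88220002), and 57.2 to 100% of the 100-base windows of these 4 genes also occur in transcripts of another gene, so reads cannot be assigned to 1 of them with certainty.

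Ugt2a3, for which the human enzyme conjugates bile acids, was at 97.1, 50.9 and 60.9 FPKM in control, 27.1, 4.47 and 36.6 FPKM in IR and 4.08, 83.9 and 19.4 FPKM in IR+LYC. IR and control did not overlap, with a log2 difference of -1.92 (SE 1.04, limma adjusted p = 0.633) that was -1.06 without IR 2. Ugt2b34, the most abundant glucuronosyltransferase here, was at 252, 163 and 185 FPKM in control, 155, 66.8 and 178 FPKM in IR and 41.7, 240.2 and 69.4 FPKM in IR+LYC, and IR 3 lay inside the control range (log2 difference -0.68, SE 0.63, limma adjusted p = 0.701, and -0.24 without IR 2). Ugt2b5, of the same steroid-conjugating group, was at 3.29 to 5.60 FPKM in control and 1.79 to 2.52 FPKM in IR without overlap, but 24.7% of its windows occur in transcripts of another gene. Ugt2b35 and Ugt2b36 overlapped, at 6.93 to 11.5 and 4.13 to 5.94 FPKM in control and 5.95 to 7.46 and 1.77 to 4.37 FPKM in IR. The 5 Ugt2 genes lie together with Sult1b1 and Sult1d1 within chr5:86889767-87569027, and the log2 differences of these 7 between IR and control spanned -1.92 to -0.32.

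The glutathione S-transferases, which conjugate electrophiles and reduce peroxides, had a median log2 difference between IR and control of -0.16, with 14 of 20 lower. This median was -0.07 without control 1 or without IR 2, -0.28 without control 2 and -0.25 without IR 3. By limma-voom on the recovered reads it was -0.04, with 10 lower and 10 higher, while the median of all genes was 0.19. Gstp1, the pi-class enzyme of the gut epithelium, was at 371, 319.7 and 365 FPKM in control, 294, 260.3 and 419.9 FPKM in IR and 228, 423 and 328 FPKM in IR+LYC. Gsto1, which reduces dehydroascorbate and arsenic compounds, was at 249.9, 194 and 229 FPKM in control, 223, 152 and 245 FPKM in IR and 137, 329 and 159 FPKM in IR+LYC. In both of these abundant genes the 3 groups overlapped, although 52.8% of the Gstp1 windows occur in another gene. Gstk1 of mitochondria and peroxisomes was at 18.6 to 33.1 FPKM in control and 11.9 to 24.7 FPKM in IR. Gstz1, which acts in tyrosine breakdown, was at 6.13 to 8.08 FPKM in control and 6.25 to 7.34 FPKM in IR.

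The mu class was split. Gstm3 was at 183, 65 and 55.1 FPKM in control, 26.7, 25.4 and 42.4 FPKM in IR and 15.8, 123 and 22.3 FPKM in IR+LYC. IR lay below every control, with control 1 far above the others and a log2 difference of -1.47 (SE 0.75, limma adjusted p = 0.629) that was -0.94 without control 1. Gstm2 was at 17.0, 10.6 and 11.6 FPKM in control, 9.03, 8.42 and 10.0 FPKM in IR and 12.7, 14.4 and 11.1 FPKM in IR+LYC. It was lower in every IR library than in any library of the other groups, with a log2 difference from control of -0.45 (SE 0.18, limma adjusted p = 0.561) that was -0.25 without control 1. Gstm5 differed in the other direction, at 11.8, 9.41 and 8.85 FPKM in control, 14.5, 14.3 and 11 FPKM in IR and 18.9, 13.8 and 15.8 FPKM in IR+LYC (IR against control 0.37, SE 0.17, limma adjusted p = 0.600). Gstm4, named after its values were seen, was the single member whose IR libraries lay above every control, at 3.21 to 4.56 FPKM in control and 4.71 to 5.18 FPKM in IR. The 7 Gstm genes lie within chr3:107895821-108044894, so neighbours with log2 differences from -1.47 to 0.37 share 1 locus.

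Gsta3, an alpha-class enzyme that reduces lipid peroxides and conjugates aflatoxin epoxide, was the 1 member higher in IR at an unadjusted p under 0.05. It was at 6.59, 2.85 and 3.37 FPKM in control, 7.26, 8.65 and 6.49 FPKM in IR and 10.3, 5.56 and 7.32 FPKM in IR+LYC, and control 1 overlapped both irradiated groups. The log2 difference between IR and control was 0.74 (SE 0.28, limma adjusted p = 0.546). Its window (chr1:21240335-21240584, plus strand) is shown as that of the member with the highest log2 difference in this comparison, with TGACNNNGC, the core of the antioxidant response element bound by Nrf2, in capitals.
Gsta3: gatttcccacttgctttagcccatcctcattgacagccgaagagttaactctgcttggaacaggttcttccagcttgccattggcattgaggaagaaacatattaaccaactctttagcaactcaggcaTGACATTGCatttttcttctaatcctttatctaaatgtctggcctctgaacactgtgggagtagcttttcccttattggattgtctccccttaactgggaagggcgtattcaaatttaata
The match lies 121 to 113 bases before the start. The core was in 10.1% of the 27025 windows and in 3 of the 58 member windows (5.17%), those of Gsta3, Gstm5 and Cyp4f18. The other alpha-class genes overlapped between groups. Gsta1 was at 29.0 to 86.9 FPKM in control and 26.4 to 42.2 FPKM in IR, with 81.8% of its windows in another gene, and Gsta4, which conjugates hydroxynonenal, was at 18.2 to 33.0 FPKM in control and 11.7 to 30.8 FPKM in IR.

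Among sulfotransferases 5 of 7 members were lower in IR, with a median log2 difference of -0.75 (-0.25 without IR 2 and -0.45 without control 1). Sult1b1, which sulfates thyroid hormones and phenols, was at 195, 129 and 141 FPKM in control, 116, 31.8 and 142 FPKM in IR and 15.4, 226 and 39.7 FPKM in IR+LYC (IR against control -0.90, SE 0.92, limma adjusted p = 0.716, and -0.25 without IR 2). Sult1d1, which sulfates catecholamines, was at 212, 122 and 145 FPKM in control, 113, 50.4 and 130.1 FPKM in IR and 26.4, 250.5 and 53.1 FPKM in IR+LYC (IR against control -0.77, SE 0.75, limma adjusted p = 0.710, and -0.36 without IR 2). In both, IR 3 lay inside the control range and IR 2 well below it. Sult2b1, the cholesterol sulfotransferase, had tight controls of 45.2, 42.8 and 46.1 FPKM, and all IR libraries were below them at 32.2, 14.6 and 37.9 FPKM (log2 difference -0.75, SE 0.69, limma adjusted p = 0.701, and -0.35 without IR 2). In IR+LYC it was at 4.92, 48.2 and 13.2 FPKM.

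Sult1a1, the phenol sulfotransferase, was at 7.85, 8.17 and 8.24 FPKM in control, 9.65, 12.2 and 8.04 FPKM in IR and 14.5, 10.1 and 12.5 FPKM in IR+LYC, so every IR+LYC library, IR+LYC 2 included, was above every control. Sult6b2, a cytosolic sulfotransferase, had the widest range among members with reads in every library. It was at 13.1, 1.11 and 0.830 FPKM in control, 0.471, 0.103 and 0.833 FPKM in IR and 0.0655, 134 and 0.0899 FPKM in IR+LYC, with IR+LYC 2 above every other library and control 1 next. Its log2 difference between IR and control was -1.40 (SE 1.76, limma adjusted p = 0.765), and -0.45 without control 1. Sult1c2 was low and overlapped, at 0.154 to 0.737 FPKM in control and 0.313 to 0.523 FPKM in IR.

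**Figure D3:**
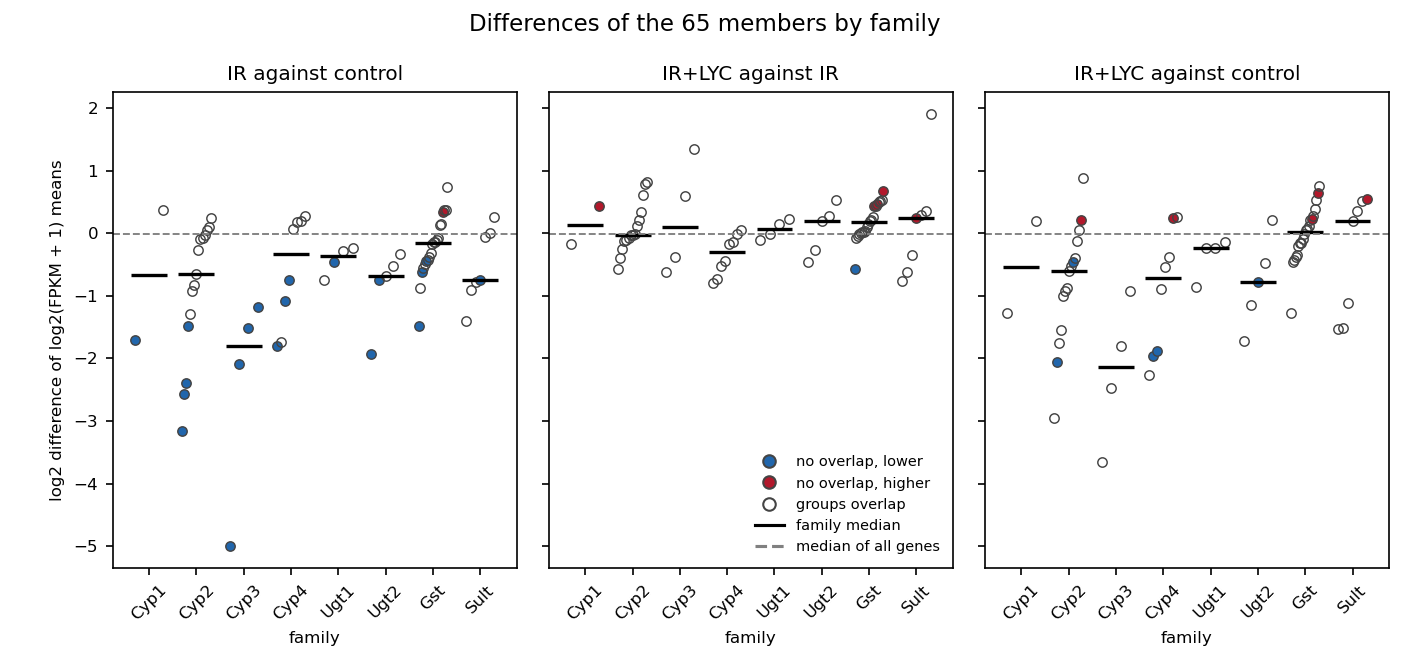
Log2 difference of group means of log2(FPKM + 1) for each of the 65 members by family, 1 panel per comparison. Filled points mark members whose libraries do not overlap between the groups (blue lower, red higher), open points those that overlap, bars the family medians and the dashed line the median of all genes. In IR against control the points reach from -5.0 for Cyp3a11 to 0.74 for Gsta3, and the Cyp3 median of -1.81 is the lowest. The panels share libraries and are not independent.

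The comparison of IR+LYC with IR asks whether lycopene altered the irradiated levels. It shares the IR libraries with the comparison above. Of the 65 members 31 were lower (47.7%, beside 51.6% of all genes) and the median log2 difference was 0.03. No member and no gene (0% of all genes) passed an adjusted limma p of 0.05, and limma-voom called none either. At an unadjusted limma p under 0.05 there were 3 members (4.62%, beside 4.26% of all genes), a share close to the background, and 7 by limma-voom (10.8%, beside 3.17%). The 3 were Gstp2 and Cyp2u1, lower (3.08%, beside 1.99%), and Gstm2, higher (1.54%, beside 2.26%). Gstp2, another pi-class gene with 63.5% of its windows in another gene, was at 13.9, 16.2 and 17.8 FPKM in IR and 10.4, 13.0 and 8.13 FPKM in IR+LYC (log2 difference -0.57, SE 0.20, limma adjusted p = 0.994). Every IR+LYC library of Gstp2 lay below every IR library, the 1 member with such an order (1.54%, beside 3.2% of all genes).

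Gstm2 was 0.43 higher in IR+LYC than in IR on the log2 scale (SE 0.18, limma adjusted p = 0.994), with no overlap, and its IR+LYC libraries lay inside the control range. The other members with no overlap and higher levels in IR+LYC were Cyp1a1, Gstm1, Gstt1 and Sult1c2, so 5 in all (7.69%, beside 4.25% of all genes). Gstt1, a theta-class enzyme, was at 14.1, 12.6 and 15.5 FPKM in IR, 18.1, 37.2 and 18.0 FPKM in IR+LYC and 32.6, 16.2 and 20.3 FPKM in control (log2 difference between IR+LYC and IR 0.68, SE 0.32, limma adjusted p = 0.994, and 0.35 without IR+LYC 2). Gstm1, a mu-class enzyme with broad substrates, was at 35.1 to 40.9 FPKM in IR and 44.1 to 65.6 FPKM in IR+LYC. Cyp2u1, a hydroxylase of long-chain fatty acids, was at 1.88, 1.34 and 2.56 FPKM in IR, 0.938, 1.48 and 1.23 FPKM in IR+LYC and 1.89, 2.30 and 1.91 FPKM in control (IR+LYC against IR -0.39, SE 0.16, limma adjusted p = 0.994, and -0.24 without IR 3).

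For the 5 members with the lowest log2 differences between IR and control, the direction between IR+LYC and IR depended on single libraries. Cyp3a11 differed by 1.34 (SE 1.74, limma adjusted p = 0.994) with all 3 IR+LYC libraries and by -0.77 without IR+LYC 2. Cyp2c55 differed by 0.34 (SE 0.59, limma adjusted p = 0.994) with all 3 and by -0.39 without IR+LYC 2. Cyp2c66 differed by 0.81 and by -0.32 without IR+LYC 2. Cyp2b10 differed by 0.20, by -1.46 without IR+LYC 2 and by -1.25 without IR 2. Cyp3a25 differed by -0.38, by -1.79 without IR+LYC 2, by 0.99 without IR+LYC 1, by 0.05 without IR 1 and by 0.14 without IR 3. The family median of Cyp3 was 0.11 with all libraries, -1.28 without IR+LYC 2 and -0.34 without IR 2, and that of all 65 members was 0.03 with all libraries and -0.38 without IR+LYC 2, with 31 and 44 members lower. IR+LYC 2 was the highest of its group in 52 of the 65 members (45.2% of all genes) and at least 2-fold above both others in 36 (11.4% of all genes). It lay inside the control range in 22 members (33.8%, beside 36.9% of all genes) and above every control in 34 (52.3%, beside 33.5%).

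IR+LYC against control shares the control libraries with the first comparison. With all libraries, 44 members were lower (67.7%, beside 50.9% of all genes), the median log2 difference was -0.38, and no member passed an adjusted limma p of 0.05, as 0.0195% of all genes did. At an unadjusted limma p under 0.05 there were 8 members (12.3%, beside 14.1% of all genes), 4 lower and 4 higher (6.15% each, beside 7.54% and 6.6%), and 16 by limma-voom (24.6%, beside 12.7%), which also called none at the adjusted threshold. The fit of these 2 groups only called no member either, and 0.0065% of all genes. Gstm5 had the smallest p (log2 difference 0.64, SE 0.17, limma adjusted p = 0.285). Cyp2c55 followed with -2.06 (SE 0.59, limma adjusted p = 0.307), and Sult1a1 with 0.55 (SE 0.17, limma adjusted p = 0.319). The others were Cyp2u1 at -0.46, Gsta3 at 0.76, Ugt2b36 at -0.78, Gstt2 at 0.24 and Cyp4b1 at -1.96 (-1.22 without IR+LYC 1). Gstt2 is a theta-class gene that was named after its values were seen. The groups did not overlap for 5 members in each direction (7.69%, beside 8.64% of all genes lower and 8.87% higher).

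Without IR+LYC 2, 20 members passed an adjusted limma p of 0.05 against control (30.8%, beside 26.8% of all genes), 17 of them lower and 3 higher, so the share was near that of all genes. They held all 4 Cyp3 members, 4 Cyp2, 3 Cyp4, 1 Ugt2, 4 Gst and 4 Sult genes. In this fit the log2 difference was -5.76 for Cyp3a11 (limma adjusted p = 0.0224), -2.78 for Cyp2c55 (limma adjusted p = 0.0154), -2.74 for Cyp4f14 (limma adjusted p = 0.0322), -2.71 for Cyp4b1 (limma adjusted p = 0.0415) and -2.15 for Gstm3 (limma adjusted p = 0.0287). With all 3 IR+LYC libraries the log2 differences were -3.66 for Cyp3a11, -1.88 for Cyp4f14 and -1.27 for Gstm3, and without IR+LYC 1 they were -1.92, -1.01 and -0.71. The 3 higher members were Gstm5 at 0.74 (limma adjusted p = 0.0276), Sult1a1 at 0.67 (limma adjusted p = 0.0291) and Gsta3 at 0.95 (limma adjusted p = 0.0495). Without both control 1 and IR+LYC 2, the libraries low in Fabp6, 1 member passed, Cyp2c55 (1.54%, beside 0.539% of all genes), with a log2 difference of -2.45 (limma adjusted p = 0.0324). Leaving libraries out was decided with their values known, and the fit without IR+LYC 2 compares 2 irradiated libraries with 3 controls.

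Members and markers of other cell types varied between libraries of 1 group. The median member, relative to the mean of the controls on the log2 scale, was at 0.32, -0.25 and -0.10 in the controls, at -0.29, -0.73 and -0.18 in the IR libraries, and at -0.81, 0.36 and -0.52 in the IR+LYC libraries. The Cyp3 median was at 0.57, -0.42 and -0.17 in the controls, at -1.37, -3.13 and -1.28 in the IR libraries, and at -4.55, 0.45 and -2.53 in the IR+LYC libraries, while the Gst median did not leave the range from -0.42 to 0.46. The 21 brush border genes had medians of 0.11, -0.17 and 0.08 in the controls, of -0.46, -2.75 and -0.40 in the IR libraries, and of -4.03, 0.02 and -1.74 in the IR+LYC libraries, with the same lowest and highest library in IR and in IR+LYC as Cyp3. All 21 were lower in IR on average, 13 without overlap with control (14% of all genes were lower and 14.1% higher without overlap), and none passed the adjusted limma threshold (1 at an unadjusted p under 0.05), nor by limma-voom (also 1 at an unadjusted p under 0.05). All 10 smooth muscle genes were higher in IR without overlap, and the 8 macrophage genes summed to 318 to 404 FPKM in control, 488 to 906 FPKM in IR and 313 to 790.2 FPKM in IR+LYC. The 6 plasma cell genes summed to 3734 to 5624 FPKM in control, 433 to 1215 FPKM in IR and 595 to 2727 FPKM in IR+LYC. Of 7 Paneth cell genes 6 were lower in IR, 5 without overlap, and of 7 goblet cell genes 6 were lower, all overlapping. Of genes marking gut position, 5 of 7 proximal, 5 of 7 ileal and 4 of 6 colonic ones were lower in IR on average. The part of cell composition and of gut position in the members' levels was not tested.

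**Figure D4:**
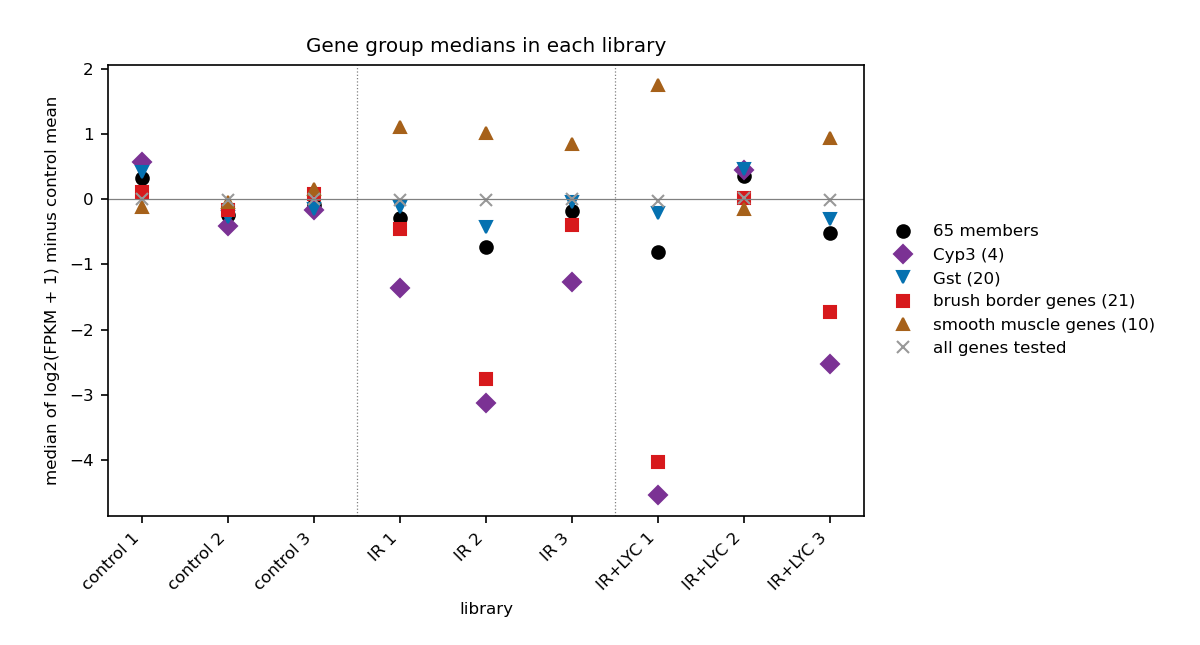
Median over each gene group of log2(FPKM + 1) minus the control mean, in each of the 9 libraries, for all 65 members, the 4 Cyp3 and 20 Gst members, 21 brush border genes, 10 smooth muscle genes and all genes tested. Cyp3 and brush border medians are lowest in IR+LYC 1 (-4.55 and -4.03) and IR 2 (-3.13 and -2.75), and in IR+LYC 2 the groups shown lie within 0.5 of the control mean.

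The brush border list was less low in IR 1 and IR 3 than in IR 2. In IR 1 and IR 3 together, 20 members were below every control (30.8%, beside 17.7% of all genes and 13 of 21 brush border genes). By more than 2-fold, 5 members were below every control in these and in all 3 IR libraries, namely Cyp2c29, Cyp2c55, Cyp2c66, Cyp3a11 and Cyp3a44 (7.69%, beside 0.975% of all genes in all 3 IR libraries), and none of the 21 brush border genes was, although 13 of these were below every control in all 3. Of the 5 members, Cyp2c29 and Cyp3a44 reached the level cut in no IR library. In IR+LYC 1 and IR+LYC 3, 40 members were below every control (61.5%, beside 33.3% of all genes), 19 of them by more than 2-fold (29.2%, beside 5.37%), with 21 and 17 of the 21 brush border genes.

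Within groups the extremes fell in the same libraries. IR 2 was the lowest IR library in 47 of 65 members (40.7% of all genes) and IR+LYC 1 the lowest IR+LYC library in 47 (39.7% of all genes). Control 1 was the highest control in 47 members (36.3% of all genes) and at least 2-fold above both other controls in 10 (1.51% of all genes). Over all 9 libraries, 21 members ranged over more than 10-fold or reached 0 (8.08% of all genes) and 7 stayed within 2-fold (52.3% of all genes), among them Cyp2s1, Gstp1, Gstz1 and Sult1a1.

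The rest of the pathway was read from lists of genes with known roles, and of their 120 genes tested none passed the adjusted limma threshold between IR and control, with 11 at an unadjusted p under 0.05 (9.17%, beside 8.34% of all genes). Limma-voom called none of 123, also with 11 at an unadjusted p under 0.05 (8.94%, beside 6.5%). The counts without overlap on each list stand beside 14% of all genes lower and 14.1% higher without overlap. Of 19 genes that sense xenobiotics or regulate these families, 16 were lower in IR (median log2 difference -0.16), 7 without overlap. Nr1i2, the pregnane X receptor, was at 74.7, 54.5 and 65.6 FPKM in control, 46.5, 22.6 and 49.8 FPKM in IR and 16.6, 96.6 and 24.8 FPKM in IR+LYC. IR lay below every control, with a log2 difference of -0.76 (SE 0.59, limma adjusted p = 0.674) that was -0.41 without IR 2. Hnf4a, a transcription factor of enterocytes and hepatocytes, overlapped between IR and control, at 195 to 249 FPKM in control, 178 to 234 FPKM in IR and 154 to 189.8 FPKM in IR+LYC. Of 10 genes that supply electrons to P450, 8 were lower (median -0.22), 3 lower and 1 higher without overlap. Cyb5a, the cytochrome b5 that donates an electron to P450, was at 209, 144 and 159 FPKM in control and 88.8, 57.3 and 107 FPKM in IR (log2 difference -1.04, SE 0.46, limma adjusted p = 0.594), while Por, the P450 reductase, overlapped at 53.8 to 74.8 FPKM in control and 36.1 to 64.5 FPKM in IR.

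Of 34 other phase I enzymes, 26 were lower in IR (median -0.47), 7 lower and 3 higher without overlap. Akr1b8, an aldo-keto reductase, was at 7.47, 4.37 and 3.92 FPKM in control, 11.5, 24.8 and 10.8 FPKM in IR and 15.9, 7.09 and 7.93 FPKM in IR+LYC. It was higher in every IR library than in any control (log2 difference 1.36, SE 0.39, limma adjusted p = 0.404). Ces2b, a carboxylesterase, was at 0.535 to 0.871 FPKM in control and 1.37 to 2.26 FPKM in IR (log2 difference 0.79, SE 0.21, limma adjusted p = 0.379), and its abundant relative Ces2a was at 191 to 257 FPKM in control and 109.9 to 142 FPKM in IR, so these esterases differed in opposite directions without overlap.

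Of 16 genes that supply cosubstrates, 11 were lower in IR (median -0.08), 2 lower and 3 higher without overlap, shares near those of all genes (14% and 14.1%). Gsr, which regenerates glutathione, was at 79.6, 106 and 83.4 FPKM in control, 138, 133 and 119 FPKM in IR and 89.9, 84.7 and 99.6 FPKM in IR+LYC, so IR was above the other groups in every library (log2 difference from control 0.54, SE 0.15, limma adjusted p = 0.404). Papss1, which makes the sulfate donor, was at 59.7, 55.3 and 73.9 FPKM in control, 55.4, 32.3 and 57.5 FPKM in IR and 26.2, 33.6 and 40.4 FPKM in IR+LYC, below every control in IR+LYC (log2 difference -0.91, SE 0.26, limma adjusted p = 0.306). Papss2, the second such gene, was at 348 FPKM in IR+LYC 2 and at 11.1 to 65.3 FPKM elsewhere, the same library in which Sult6b2 was highest.

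Of 13 other conjugation enzymes, 9 were lower in IR (median -0.18), 4 lower and 3 higher without overlap. Of 19 efflux and uptake transporters, 16 were lower (median -0.27), 10 lower and 1 higher without overlap (14% and 14.1% of all genes). Abcb1a, the P-glycoprotein that pumps drugs back into the lumen, was at 145, 109.9 and 127 FPKM in control, 72.5, 43.0 and 78.6 FPKM in IR and 29.8, 90.5 and 37.3 FPKM in IR+LYC. Every irradiated library, IR+LYC 2 included, was below every control, with log2 differences from control of -1.0 in IR (SE 0.41, limma adjusted p = 0.569) and -1.42 in IR+LYC (SE 0.41, limma adjusted p = 0.307). By contrast, of 9 P450 genes of families 5 and above, which act mostly on sterols, bile acids and vitamins, 2 were lower and 7 higher in IR (median 0.21), with 2 lower and 3 higher without overlap.

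Of the 78 genes with a family name below the level cut, 30 had no reads and 51 did not reach 0.1 FPKM in any library. The highest that stayed outside were Ugt2b38 at 0.833 FPKM, Cyp2r1 at 0.755 FPKM, Cyp3a16 at 0.690 FPKM and Cyp4f39 at 0.675 FPKM, each past 0.5 FPKM in a single library or a pair. Cyp3a16 had reads in control 1 alone. Just inside the cut were Ugt1a9, Cyp2w1 and Gsta2, which were at or above 0.508, 0.536 and 0.562 FPKM in the 3 libraries where each was highest, and Cyp2w1 and Gsta2 were named for this alone.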

How the data were processed

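RNA of 9 mouse intestine libraries was sequenced, with trimming by fastp and alignment by HISAT2 2.0.5 (per the submitters' processing notes). The counting tool, its strand setting, the annotation and the genome build are not given in the sources used here. The deposited table holds FPKM values made by the authors, and 58 of the 65 members have the same coordinates in GENCODE M21 (GRCm38), the build printed here. Whole reads were recovered from the FPKM, with 202261 of 202261 values whole within 0.01 read. The total by which the authors divided differed from the recovered reads by a further factor for each library, whose origin is not given. It was 0.854 in IR+LYC 2 and 0.875 in control 1, and 1.2 in IR 2, 1.26 in IR+LYC 1 and 1.16 in IR+LYC 3. A factor above 1 lowers the FPKM of a library.

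Tests were run on log2(FPKM + 1), computed here, so that differences of low genes are understated. Limma 3.58.1 in R 4.3.3 fitted 1 model with a trend over the 3 groups for the 15391 genes that reached 0.5 FPKM in 3 or more libraries, with Benjamini-Hochberg adjustment over all of them (8.18 total degrees of freedom). The fit was tested on simulated data. Alternatives were a pseudocount of 0.1, no filter, median-ratio scaling, a minimum mean of 5 FPKM, fits of 2 groups only or without trend, a replicate block, limma-voom on the recovered reads (16806 genes with at least 10 reads) and leaving out each library.

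The members and all lists (pathway and cell type) were chosen with earlier results of these data known. Genes are named by a rule (in each family the 4 highest in mean FPKM, the 2 smallest p in each comparison and a fixed set, which gave 50 members, and up to 3 genes of each other list and comparison by p); the text says where a member falls outside it, and the genes Nr1i2, Hnf4a, Por, Cyb5a, Ces2a, Papss2, Fabp6 and Onecut2 were named for their role. Reads of close paralogs may be split: the share of 100-base windows found in another gene's transcripts is above 50% for 7 members and below 10% for 53.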

Additional observations from a re-analysis of the deposited data

How the results depend on the processing

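Leaving out a library moved the median log2 difference of the 65 members, over a range from -0.58 to -0.16 in IR against control (lowest without IR 3, highest without control 1), from -0.38 to 0.35 in IR+LYC against IR (lowest without IR+LYC 2, highest without IR+LYC 1) and from -0.76 to -0.07 in IR+LYC against control (lowest without IR+LYC 2, highest without IR+LYC 1). The count of members past the threshold was 0 in each comparison. In IR against control it was 1, Cyp2c55, in the fit of 2 groups only and 0 to 1 over the fits without 1 library. In IR+LYC against control it was 0 to 20 over these fits, with 20 without IR+LYC 2, and 1 without control 1 and IR+LYC 2, an alternative chosen after seeing the data. Without IR+LYC 2, alone or with control 1, the difference between IR+LYC and IR turned from 1.34 to -0.77 for Cyp3a11, from 0.34 to -0.39 for Cyp2c55, from 0.20 to -1.46 for Cyp2b10 (-1.25 without IR 2) and from 0.81 to -0.32 for Cyp2c66. Without IR+LYC 1 these ran up to 3.07, 0.91, 1.73 and 1.74. For Cyp3a25 it was -0.38, from -1.79 without IR+LYC 2 to 0.99 without IR+LYC 1. Of 999 alternative values of 56 gene results, 975 kept their direction and side of the threshold, 12 newly passed it and 12 changed direction. All 56 were above the threshold in the main fit. Several alternatives cannot change a log2 difference: no filter, no trend, 2 groups only, a replicate block, and leaving out a library of the third group. The count of 975 is therefore in part fixed by design. Without IR 2 the log2 difference between IR and control shrank by over 1.5 times in 15 of 27 member results, without control 1 in 5, and none of these changed direction.

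Over all genes, IR against control called 3, and 100 in the fit of 2 groups only, 98 without IR+LYC 2, 16 without control 1 and IR+LYC 2, 7 with no filter, 1 with a pseudocount of 0.1 or a mean of at least 5 FPKM and 0 with limma-voom. IR+LYC against control called 3, and 4120 without IR+LYC 2, 83 without control 1 and IR+LYC 2, 6 with no filter, 1 with 2 groups only or a mean of at least 5 FPKM and 0 with a pseudocount of 0.1 or limma-voom. IR+LYC against IR called 0 under each. The cause was not tested. By limma-voom the median log2 difference of all genes was 0.19 (IR against control) and 0.24 (IR+LYC against control), beside -0.01 for each in the main fit. The limma-voom fit also held another set of genes (16806 instead of 15391). In it 41 and 39 of the 65 members, instead of 49 and 44, were lower. Same-numbered libraries correlated from -0.65 to 0.38 in their deviations from the group means, and differently numbered ones from -0.61 to 0.64. These values show no pairing by replicate number, but with 3 libraries a group they cannot exclude it. With a replicate block no member and no gene passed in any comparison. The member medians of -0.45, 0.03 and -0.38 could not move in that fit, since each block held 1 library of each group. Members near 0 FPKM, such as Cyp3a44 and Cyp2c29 in the irradiated libraries, are limited by depth.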
